A study of Mus musculus with 50 samples.

Results

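The peaks described here came from antibody enrichment for N6-methyladenosine (m6A). They lay in the coding sequence of a transcript but more than 50 nt from the nearest consensus motif. They were taken from the authors' table of 32009 peaks by 2 of its columns, the transcript part and the distance to the motif, in either direction. The rule found 2419 peaks on 1999 transcripts, which was 20.8% of the 11623 coding-sequence peaks and 7.56% of all peaks. None of the coding-sequence peaks lacked a distance. The remaining 9204 coding-sequence peaks lay within 50 nt of the motif and serve below as the comparison, called near peaks. The 2419 are called far peaks.

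The 12 m6A-seq libraries came from mouse B cells kept overnight with LPS, a component of bacterial walls that makes B cells divide. Mettl3 flox/flox cells and Mettl3 flox/+ cells each gave 3 libraries of RNA captured by an m6A antibody (IP) and 3 of RNA before capture (Input). Both genotypes carried AIDcre, in which Cre is driven by the gene of the B cell enzyme AID. The controls therefore also had Cre and 1 floxed allele, and deletion depends on activated B cells switching AID on. How far METTL3 was lost after a night of LPS was not measured here. The strain labels of these libraries run from C57BL/7 to C57BL/18, a different value for each library, the age of the mice is not stated, and the design text speaks of wild type cells where the labels give these genotypes. The other 38 samples, which measured expression, were not used here. The tables pair no transcript with a gene symbol, so no marker of B cells could be looked up.

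METTL3 is the catalytic subunit of the nuclear complex that methylates adenosines in messenger RNA. The complex acts in a short sequence context built around a central A and C, known as DRACH, and its product is commonly found near stop codons and in long internal exons. Antibody pull-down places the mark on an RNA fragment and not on a single base. It can also enrich fragments without the mark, and other adenosine methylations, such as the one beside the cap, are recognised as well. The distance between a peak and the motif is therefore used in this field as a measure of how closely a peak sits on a place where METTL3 could act. The authors' table does not spell its motif out, so whether it is DRACH is not known here.

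Every value below is pooled over the libraries of an arm. For each peak the table holds a score in a test arm, a score in an arm it calls control, and a p-value for their difference. It does so in 2 versions of the score, called first and second here. How the scores were computed is not stated in the sources used here, and they are written in score units. The table names no genotype. Here the test arm was taken to be flox/+ and the comparator arm, the table's control, to be flox/flox, since the authors' list of METTL3-dependent peaks holds peaks with higher test arm scores. Which genotype is higher is known only as far as that holds. Without scores per library, neither depth nor replicate spread is known and no test over libraries can be run. Shares carry exact Clopper-Pearson 95% intervals and medians carry 95% intervals from their order statistics. Both cover counting error only and treat peaks as independent, although peaks on a transcript share their RNA.

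The distance to the motif, on which the far peaks were chosen, had a median of 84 nt (quartiles 63 to 121) and reached 644 nt. Between 51 and 75 nt there were 1017 of them, between 76 and 100 nt 535, then 498 up to 150 nt, 198 up to 200 nt and 171 beyond. The sign of the distance, whose orientation the table does not define, was evenly split, with 1193 negative and 1226 positive values. Among the 3297 peaks at transcript starts that were also more than 50 nt from the motif, 2855 (86.6%) had a negative sign. These 3297 lay a median of 77 nt from the transcript start and 120 nt from the motif, which leaves many of them no room for it upstream.

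Most far peaks stood alone in this class on their transcript. A single far peak was found on 1674 transcripts (83.7%), 2 on 268 and at least 3 on 57. On 440 transcripts (22.0%) the far peak was the only peak of any kind, and on 476 every peak was a far one. Another 1065 of the 1999 transcripts (53.3%) also had a near peak in their coding sequence, 740 had a peak around the stop codon and 625 had one at the transcript start. A 3' UTR peak was found on 382 and a 5' UTR peak on 139. Where a transcript had another peak, the closest one lay a median of 268 nt away (quartiles 138.5 to 570.0), and for near peaks that gap was 209 nt (109 to 471). Another peak within 100 nt was found for 10.2% of far and 18.0% of near peaks.

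No autosome stood apart in its share of far peaks. Among the 19 autosomes and the X chromosome their share of coding-sequence peaks ran from 17.5% on chromosome 10 (14.4% to 21.0%) to 23.8% on chromosome 4 (20.6% to 27.3%), and these intervals overlap. The median position was 1158 nt from the transcript start (quartiles 618.5 to 2113) and the farthest was at 26700 nt. The table gives a second position for each peak, and the difference between both had a median of 7 nt in far peaks and 7 nt in near peaks. It exceeded 20 nt for 21.6% of far and 21.3% of near peaks.

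Scores of far peaks were lower than those of near peaks in both arms. In the test arm the median first-version score was 1.80 (quartiles 1.14 to 2.50) for far, 2.08 for near and 2.19 for all peaks. In the comparator arm these medians were 1.66 (1.06 to 2.27), 1.84 and 1.94. Second-version medians of far peaks were 2.73 (test arm) and 2.25 (comparator arm), where near peaks had 3.51 and 2.80. The quartile ranges of far and near peaks overlapped widely in each arm and version.

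The difference between the arms was also smaller. Test minus comparator, the median first-version difference was 0.13 (95% interval 0.09 to 0.17) in far peaks, 0.26 (0.24 to 0.28) in near peaks and 0.25 (0.24 to 0.26) over all peaks. On the second version it was 0.29 (0.25 to 0.32), 0.55 (0.53 to 0.56) and 0.49 (0.47 to 0.50). The test arm scored higher in 1350 far peaks (55.8%, 53.8% to 57.8%) on the first version and in 1523 (63.0%, 61.0% to 64.9%) on the second. For near peaks these shares were 64.6% and 76.6%, and for all peaks 61.7% and 70.0%. Both versions gave the same sign for 1815 far peaks (75.0%).

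**Figure D1:**
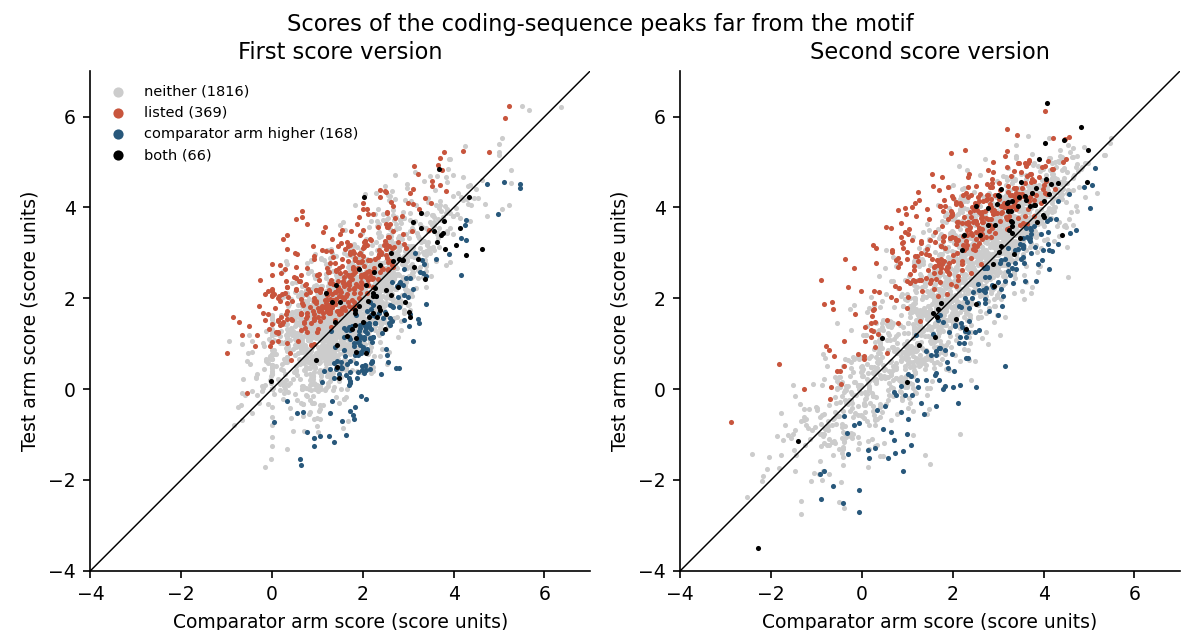
Each point is 1 of the 2419 far peaks, with the comparator arm score on the x axis and the test arm score on the y axis (score units; left the first version, right the second; the line marks equal scores). Points above the line score higher in the test arm; 435 peaks are in the METTL3-dependent list, 66 of them also meeting the rule with the comparator arm higher, 168 meet only the latter and 1816 neither.

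The authors' METTL3-dependent list held 435 of the 2419 far peaks, or 18.0% (16.5% to 19.6%). The background over all 32009 peaks was 28.1%, and 2598 of the 9204 near peaks were listed (28.2%, 27.3% to 29.2%). To be listed, a peak needs an unadjusted p under 0.1 on at least 1 score version and a higher test arm on at least 1, which held for every listed and no unlisted peak. The 435 listed far peaks lay on 408 transcripts. Of them, 216 passed the p threshold on the second version only, 118 on the first only and the rest on both. The test arm was higher on both versions in 369 of the listed far peaks (84.8%), in 85.1% of listed near peaks and in 86.8% of all listed peaks. The median first-version scores of the listed far peaks were 2.35 in the test and 1.58 in the comparator arm, values on which the list itself was chosen.

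In the other direction, 234 far peaks met the rule with the comparator arm higher (9.67%, 8.52% to 10.9%), against a background of 10.7% of all peaks and 7.68% (7.15% to 8.24%) of near peaks. That background includes the transcript-start peaks, of which 26.0% met the rule. Without the first 300 nt of the transcript it was met by 8.99% of far (7.84% to 10.3%), 7.46% of near and 6.13% of all peaks (5.83% to 6.44%). The listed shares were then 18.6%, 28.4% and 34.4%. In 66 far peaks the versions had opposite signs, with p under 0.1 on at least 1 of them, so that both rules were met. A stricter reading took the direction only from a version with p under 0.1. The test arm was then higher in 410 far peaks (16.9%) and the comparator arm in 197 (8.14%). The backgrounds were 26.7% and 8.59%, and near peaks had 27.2% and 4.77%. Under that stricter reading about 1 in 3 of the called far peaks, 197 beside 410, scored higher in the comparator arm, while near peaks had 439 beside 2501.

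After Benjamini-Hochberg adjustment of the authors' p-values over the whole table, no far peak had a p under 0.05, and none of all peaks had (0.0% on each version). The smallest adjusted values among far peaks were 0.249 (first version) and 0.219 (second version). The first version alone, at p under 0.1, had 198 of the 2409 far peaks with such a p higher in the test arm (8.22%; background 14.2%). The second version alone had 309 (12.8%; background 21.3%). With p under 0.05 on either version, 234 were higher in the test arm (9.67%; background 17.7%) and 117 in the comparator arm (4.84%; background 6.0%). On the first version alone that threshold left 109 (4.52%; background 8.18%) and 70 (2.91%; background 3.35%), and on the second 154 (6.37%; background 12.9%) and 48 (1.98%; background 2.01%). The share higher in the test arm was below its background in each of these counts. At p under 0.05, where both directions were counted, the share higher in the comparator arm was closer to its own background. Membership of the list is thus not a call that passed adjustment for any single far peak.

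Within the coding sequence the listed share went down with distance from the motif up to 200 nt. It was 34.0% (32.2% to 35.9%) within 5 nt and 27.4% at 11 to 20 nt. At 31 to 50 nt it was 21.2% (19.2% to 23.2%). Among far peaks it was 19.9% (17.4% to 22.4%) between 51 and 75 nt, 17.8% between 76 and 100 nt, 16.7% from there to 150 nt and 14.1% (9.61% to 19.8%) from there to 200 nt. Beyond 200 nt it was 15.8% (10.7% to 22.1%). The 5 intervals of the far peaks overlap, so no order among these bins is resolved. At the threshold the values ran on without a step. Of the 309 peaks at 46 to 50 nt, 65 were listed (21.0%) and their median first-version difference was 0.18; of the 258 at 51 to 55 nt, 47 were listed (18.2%) and the median was 0.20.

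The median difference followed distance in a like manner. On the first version it was 0.20 (0.11 to 0.25) between 51 and 75 nt, 0.14 between 76 and 100 nt, 0.07 from there to 150 nt and -0.02 (-0.16 to 0.15) from there to 200 nt. The second version gave these bins 0.37, 0.28, 0.24 and -0.02. Beyond 200 nt they were 0.13 (-0.01 to 0.25) and 0.26 (0.04 to 0.45). The listed share was close for both signs of the distance. Of the 1193 negative distances 209 were listed (17.5%, 15.4% to 19.8%), and of the 1226 positive ones 226 (18.4%, 16.3% to 20.7%). The median first-version difference was 0.08 (0.03 to 0.14) for negative and 0.18 (0.12 to 0.25) for positive distances, and these intervals overlap. The second version gave 0.25 (0.19 to 0.30) and 0.31 (0.27 to 0.37).

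**Figure D2:**
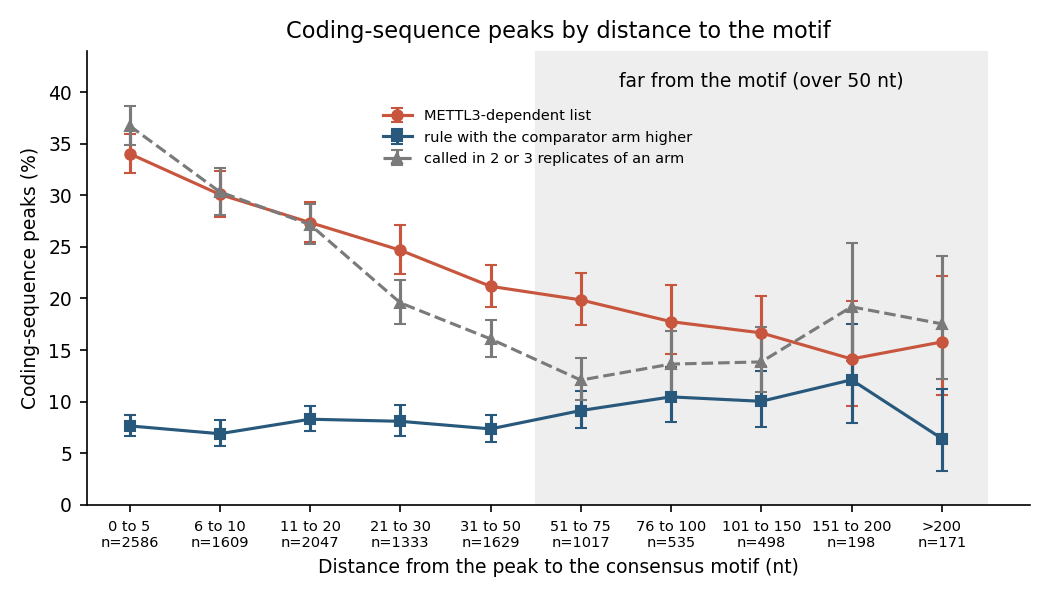
Percent of coding-sequence peaks (y axis) by distance to the motif in nt (x axis, with the number of peaks in each bin): in the METTL3-dependent list (circles), meeting the rule with the comparator arm higher (squares) and called in at least 2 replicates of an arm (triangles). Bars are exact 95% intervals and the shaded bins are the far peaks, whose listed share lies between 14.1% and 19.9%.

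The place of a far peak along the transcript went with its score difference. The coding-sequence part begins at 200 nt in this table, since the first stretch is counted as transcript start. Of the 184 far peaks up to 300 nt, 20 were listed (10.9%, 6.77% to 16.3%) and 33 met the rule with the comparator arm higher (17.9%, 12.7% to 24.3%). Of the 270 between 301 and 500 nt, 39 (14.4%, 10.5% to 19.2%) and 35 (13.0%, 9.20% to 17.6%) did. Between 501 and 1000 nt the 606 far peaks gave 21.1% (17.9% to 24.6%) and 11.9% (9.41% to 14.7%), and between 1001 and 2000 nt the 714 gave 19.9% and 7.42% (5.61% to 9.60%). Past 5000 nt, 21 of 120 were listed (17.5%) and 3 had the opposite direction (2.50%, 0.52% to 7.13%). The share with the comparator arm higher was thus largest among far peaks close to the start, and near peaks fell along the transcript as well, from 13.0% up to 300 nt to 8.07% between 501 and 1000 nt and 6.08% between 2001 and 5000 nt.

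In the same stretches, near peaks had listed shares between 24.1% and 29.2%. Up to 300 nt, 89 of 369 near peaks were listed (24.1%, 19.8% to 28.8%) and 48 (13.0%, 9.75% to 16.9%) met the rule with the comparator arm higher. The median first-version difference of far peaks up to 300 nt was -0.10 (-0.24 to 0.09) and that of near peaks there 0.14 (-0.01 to 0.21). The second-version medians were -0.10 (-0.24 to -0.01) and 0.33 (0.15 to 0.43). From 501 nt on, the first-version median of far peaks lay between 0.14 and 0.24. Far transcript-start peaks, which lie upstream of these, had a median of -0.35 (-0.38 to -0.33). Early far peaks were also called more often, with 57 of 184 (31.0%) called in at least 2 replicates of an arm, compared with 65 of 606 (10.7%) between 501 and 1000 nt. Near peaks up to 300 nt had a like share of 29.0%, and 26.8% between 501 and 1000 nt. Of the 184, 44 lay on a transcript with a transcript-start peak of its own, and of those 44 peaks 4 were listed, 5 had the opposite direction (11.4%, 3.79% to 24.6%) and 7 were called in at least 2 replicates of an arm (15.9%). Of the 140 without such a peak, 16 were listed, 28 had the opposite direction (interval 13.7% to 27.6%) and 50 were called that often (35.7%). The opposite share of the 44 was close to the 10.7% of all peaks, but its interval overlaps that of the 140. For near peaks up to 300 nt the order was the other one. Their opposite share was 15.8% (10.2% to 23.0%) with a transcript-start peak and 11.3% (7.52% to 16.1%) without.

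**Figure D3:**
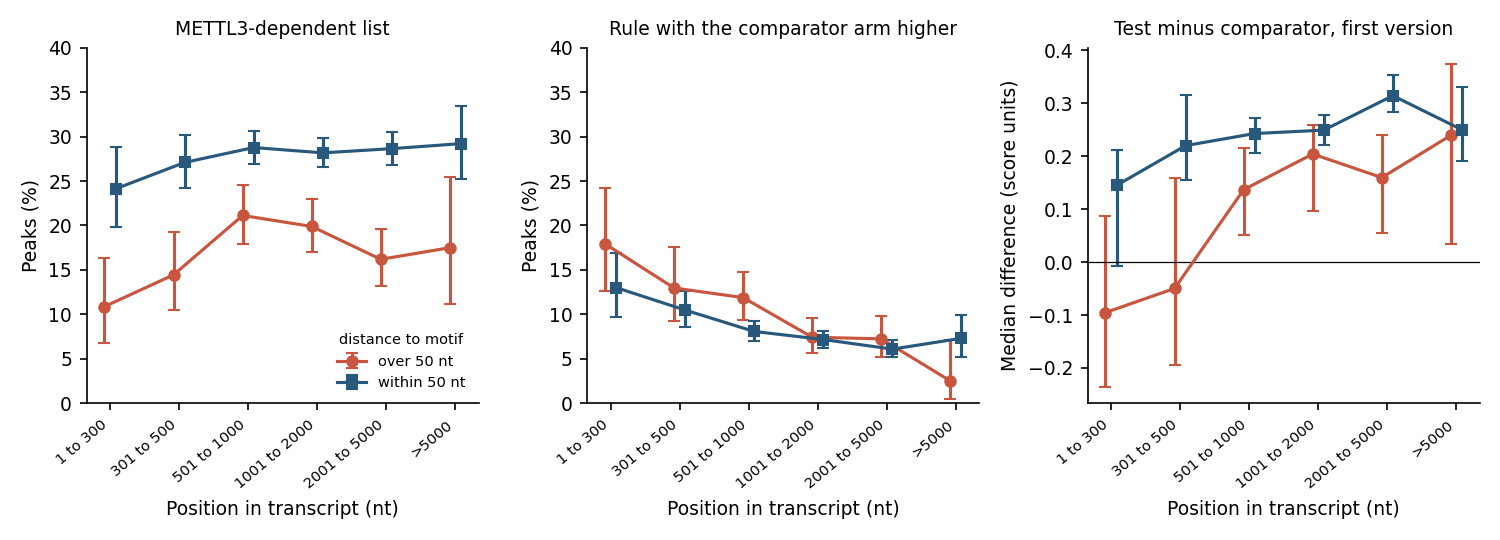
Far peaks (circles, over 50 nt from the motif) and near peaks (squares, within 50 nt) by position in the transcript in nt: percent in the METTL3-dependent list (left), percent meeting the rule with the comparator arm higher (middle) and median first-version difference in score units (right). Bars are 95% intervals; far peaks up to 300 nt have a listed share of 10.9% and a median of -0.10.

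Far peaks were seldom called in several replicates. For each arm the table has a number of peaks between 0 and 3, taken here to count the replicates with a call. A call in at least 2 replicates of an arm was recorded for 333 far peaks (13.8%, 12.4% to 15.2%), against 36.2% of all peaks and 2517 near peaks (27.3%, 26.4% to 28.3%). The test arm reached that number in 250 far peaks (10.3%), the comparator arm in 209 (8.64%). The near peaks had 22.3% and 15.3%. A single call over both arms together was the most common state, with 1466 far peaks (60.6%, 58.6% to 62.6%), 47.5% of near peaks and 42.9% of all peaks. In 507 far peaks (21.0%) no replicate had a call, next to 15.9% of all peaks. All 6 replicates had a call in 58 far peaks (2.40%), 4.22% of near peaks and 9.58% of all peaks.

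The balance of calls between the arms was not the same for peaks with 1 call and with several. More comparator than test replicates had a call in 905 far peaks (37.4%, 35.5% to 39.4%; background 29.3%), and more test than comparator replicates in 816 (33.7%, 31.8% to 35.7%; background 38.0%). Near peaks had 29.1% and 39.4%. The excess of comparator calls lay in far peaks with a single call, 801 of which had it in the comparator arm (33.1%) and 665 in the test arm (27.5%). Near peaks had 23.1% and 24.4%, and all peaks 20.7% and 22.3%. Far peaks with more than 1 call leaned to the test arm, with more test calls in 6.24% of all far peaks and more comparator calls in 4.30%. For near peaks these shares were 15.0% and 6.01%, and over all peaks 15.7% and 8.67%. Calls in 3 test and 0 comparator replicates numbered 13 (0.537%; background 1.95%), of which 9 were listed. The converse numbered 9 (0.372%; background 0.918%), of which 3 were listed and 7 met the rule with the comparator arm higher. Among the 435 listed far peaks, 221 (50.8%) had more test calls, 92 (21.1%) more comparator calls and 90 (20.7%) none. Listed near peaks had 53.6%, 16.7% and 17.1%. Calls and scores come from the same libraries, so the calls are no separate support for the list.

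**Figure D4:**
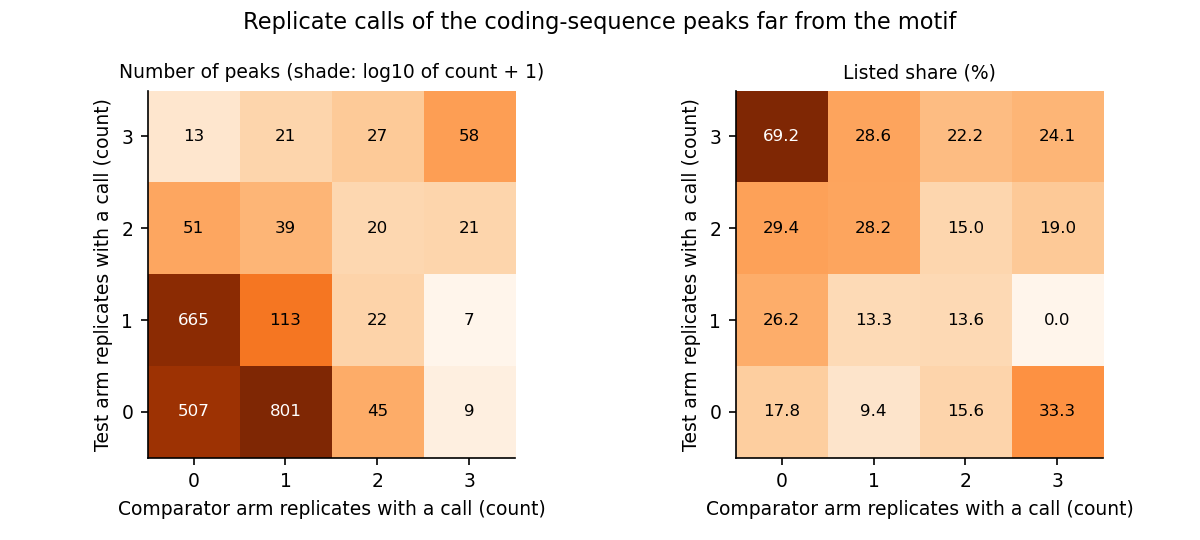
The 2419 far peaks by the number of test arm replicates (y axis) and comparator arm replicates (x axis) with a call: number of peaks on the left, percent of them in the METTL3-dependent list on the right. Most peaks have at most 1 call (507, 665 and 801 peaks), and the 13 peaks with 3 test and 0 comparator calls have the highest listed share, 69.2%.

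The listed share of far peaks was the lower one at each level of first-version score. All peaks were ranked by first-version score, averaged over the arms, and divided into quartiles at 1.44, 2.03 and 2.79. Far peaks fell into them with 38.3%, 27.4%, 20.6% and 13.7%, from weak to strong, where near peaks had 27.1%, 27.5%, 24.2% and 21.1%. In the weakest quartile 11.2% of far peaks (9.26% to 13.4%) and 19.3% of near peaks (17.8% to 20.9%) were listed. In the strongest these shares were 24.4% (19.9% to 29.4%) and 36.8% (34.7% to 39.0%). The intervals of far and near peaks overlapped in none of the 4 quartiles. Repeat calls showed the same order, with 38.9% (33.6% to 44.3%) of far and 54.5% (52.2% to 56.7%) of near peaks in the strongest quartile called in at least 2 replicates of an arm.

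Among the 333 repeatedly called far peaks, 81 were listed (24.3%, 19.8% to 29.3%) and 60 met the rule with the comparator arm higher (18.0%, 14.0% to 22.6%). All peaks called that often had 33.5% and 16.7%. For the 2517 near peaks the shares were 40.4% (38.4% to 42.3%) and 9.50% (8.38% to 10.7%). The median first-version difference of these far peaks was 0.12 (0.04 to 0.18) and that of the near peaks 0.35 (0.31 to 0.37).

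**Figure D5:**
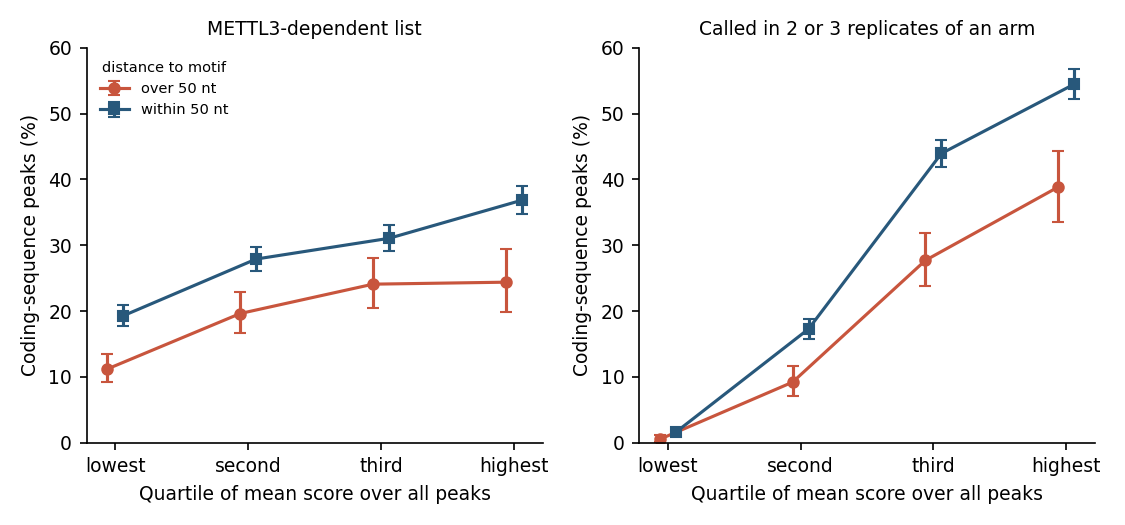
Percent of coding-sequence peaks in the METTL3-dependent list (left) and called in at least 2 replicates of an arm (right), by quartile of mean score over all peaks (x axis), for far peaks (circles) and near peaks (squares) with exact 95% intervals. In the strongest quartile 24.4% of far and 36.8% of near peaks are listed.

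On the 1065 transcripts with both kinds of coding-sequence peak, which holds the transcript equal, near peaks again had the larger difference, by a small margin. With several peaks of a kind averaged, the near peaks had the larger first-version difference on 593 of them (55.7%, 52.6% to 58.7%), and the median gap, near minus far, was 0.08 (0.04 to 0.12). The second version had 586 such transcripts and a gap of 0.10 (0.04 to 0.16). Near peaks scored higher in the mean of both arms on 672 (63.1%, 60.1% to 66.0%). Both kinds had a listed peak on 161 of these transcripts, the near kind only on 297, the far kind only on 86 and neither on 521. For these counts 1 listed peak of a kind was enough, and the number of peaks per kind was not held equal. In the whole set 9204 near peaks lay on 5211 transcripts and 2419 far peaks on 1999. The kind with more peaks had more chances of a listed one, so 297 and 86 do not compare single peaks.

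The gap between near and far peaks was largest where the near peak was over 500 nt away. For the 522 far peaks with a near peak at most 200 nt away, the first-version medians were 0.28 for the far and 0.29 for the near peak, a median gap of 0.04 (-0.01 to 0.09). For the 425 whose nearest near peak was over 500 nt away, they were -0.03 and 0.32, a gap of 0.19 (0.11 to 0.37). The second-version gap was 0.05 (0.004 to 0.11) for the close pairs and 0.25 (0.16 to 0.38) for the distant ones. Values of peaks this close may share RNA fragments, whose part in the result was not tested.

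Peaks in other parts of the transcript were also set against the far peaks of the same transcript. Stop-codon peaks had a higher first-version difference than far peaks on 510 of 740 shared transcripts (68.9%, 65.4% to 72.2%), with medians of 0.57 and 0.10. Peaks of the 3' UTR did so on 269 of 382 (70.4%), with medians of 0.56 and -0.05. Transcript-start peaks did so on 237 of 625 (37.9%, 34.1% to 41.9%), with medians of -0.23 for them and 0.03 for the far peaks. Of the 408 transcripts with a listed far peak, 186 had no listed peak of another kind, but on 82 of these every peak was a far one and none of another kind could be listed.

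The listed share of peaks far from the motif followed the part of the transcript. Among the peaks over 50 nt from the motif in other parts, 345 of 923 around the stop codon were listed (37.4%, 34.2% to 40.6%), 207 of 966 in the 3' UTR (21.4%, 18.9% to 24.1%), 41 of 397 in the 5' UTR (10.3%, 7.51% to 13.7%) and 220 of 3297 at the transcript start (6.67%, 5.84% to 7.58%). Over all distances these parts had 46.8%, 37.1%, 17.8% and 7.71%, the same order, and the coding sequence had 26.1%. In each of the 5 parts the far peaks had a lower listed share than all peaks of that part. For repeat calls, the far coding-sequence peaks with 13.8% were beside the 3' UTR with 11.5% and below the stop codon with 19.6% and the transcript start with 63.2%.

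Single far peaks are named by their transcript identifier in the authors' deposited table. Positions are in mouse build mm9, as far as it can be told. The 4 highest mean scores among peaks called in all 6 replicates all lay within 500 nt of the transcript start, and none of the 4 was listed. In the authors' deposited table the peak on uc008lwu.1, on chromosome 2 at position 120557216, scored 5.53 in the test and 5.07 in the comparator arm (p = 0.498), and that on uc007oij.1, on chromosome 12 at position 88488367, scored 5.17 and 5.003 (p = 0.768). The authors' deposited table gave 4.51 and 5.46 (p = 0.0127) for uc009gqf.1, on chromosome 7 at position 51828016. For uc009cfy.1, on chromosome 6 at position 70741957, the authors' deposited table gave 4.56 and 5.11 (p = 0.264; second version p = 0.0489). Both of these last peaks met the rule with the comparator arm higher.

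The 4 listed far peaks with the largest first-version difference, among those called in at least 2 test replicates and fewer comparator replicates, lay on uc011xim.1, uc009ugr.2, uc008cta.1 and uc009bur.2. In the authors' deposited table uc011xim.1, on chromosome 10 at position 79594485 and 106 nt from the motif, scored 2.37 and 0.32 (p = 0.158), with 5.20 and 1.95 on the second version (p = 0.0879). In the authors' deposited table uc009ugr.2, on chromosome X at position 131341372, scored 3.80 and 1.91 (p = 0.00283). It was called in 3 test replicates and 1 comparator replicate, as was uc008cta.1, on chromosome 17 at position 46680414, which scored 4.34 and 2.50 in the authors' deposited table (p = 0.107; second version p = 0.0762). The peak on uc009bur.2, on chromosome 6 at position 48518428 and 51 nt from the motif, was called in 3 test replicates and in no comparator replicate, with scores of 3.16 and 1.45 in the authors' deposited table (p = 0.00962). In all 4 the test arm was the higher one on both versions.

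In the opposite direction the 4 most negative differences, among peaks meeting the rule with the comparator arm higher and called in at least 2 comparator replicates and fewer test replicates, lay on uc007ewd.1, uc008mab.1, uc008fuo.2 and uc009ups.1. Each was called in 2 comparator replicates and in no test replicate. In the authors' deposited table uc007ewd.1, on chromosome 10 at position 39541669, scored 0.89 in the test and 2.50 in the comparator arm (p = 0.0203), and uc008mab.1, on chromosome 2 at position 121866937, scored 1.87 and 3.39 (p = 0.0467). In the authors' deposited table uc008fuo.2, on chromosome 18 at position 84728048, scored 0.51 and 1.99 (p = 0.0694), and uc009ups.1, on chromosome X at position 148362874, scored 0.57 and 1.85 (p = 0.0670). Their distances to the motif were 54, 83, 83 and 70 nt, and the comparator arm was the higher one on both versions in all 4.

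The 3 peaks farthest from the motif among those called in at least 2 replicates of both arms were called in all 6 replicates, and none was listed. They lay 515 nt from the motif on uc007dkx.1 (chromosome 1, position 169280393), 342 nt on uc009axt.1 (chromosome 6, position 8459981) and 308 nt on uc008rvf.1 (chromosome 3, position 157204092). The authors' deposited table gave them first-version differences of 0.25, -0.54 and -0.20. These peaks were 272, 386 and 365 nt from the transcript start. The smallest first-version p of a far peak in the authors' deposited table was 3.12e-05 (adjusted over all peaks by the Benjamini-Hochberg method 0.249), on uc011wmc.1, on chromosome 1 at position 63121044, where the test arm scored 0.53 and the comparator arm 2.04. The smallest second-version p in the authors' deposited table was 0.000155 (adjusted in the same manner 0.219), on uc007oal.1, on chromosome 12 at position 81211020, with second-version scores of 3.80 and 3.16. Neither peak was called in more than 1 replicate.

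The transcript with most far peaks, uc012enc.1 on chromosome 6, held 9 among its 20 peaks, between 4308 and 12466 nt from its start. None was listed, only 1 was called in at least 2 replicates of an arm, and the first-version difference was above 0 in 1 of the 9 (median -0.38, from -1.80 to 0.03). Its other 11 peaks had a median of -0.02 and 1 was listed. The 20 peaks spread over the chromosome from position 68686455 to 70408005, while the last lay 17622 nt from the transcript start. Whether this identifier stands for 1 message or several was not tested. The most listed far peaks on a transcript were 3, found on 3 transcripts, of which uc007ote.1 (chromosome 12) and uc008std.1 (chromosome 4) come first by identifier. On uc007ote.1 the 4 far peaks had differences from 0.47 to 1.22, and 3 of its 4 other peaks were listed too. On uc008std.1 the 3 far peaks had differences from 0.59 to 2.35, and its other 2 peaks were listed.

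The 7 far peaks on the transcript called chrM_Light are not on a coding sequence in the usual sense. This identifier stands for a strand of the mitochondrial genome, which is transcribed inside mitochondria as a long precursor. All 8 peaks of the identifier are annotated as coding sequence, and the sum of genomic and transcript position was 16300 in each, so the table treats the strand as 1 transcript. The far share of these 8 peaks was 87.5% (47.3% to 99.7%), beside 20.8% of all coding-sequence peaks. None was listed and none met the rule with the comparator arm higher, and their smallest p on either version was 0.260. First-version scores ran from -0.13 to 3.27 in the test and from -0.33 to 3.34 in the comparator arm, with differences from -1.47 to 0.56. On the second version the comparator arm was higher in 6 of the 7. Without these 7 peaks the listed share of far peaks was 18.0%, as before.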

How the data were processed

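Both tables of 12 pooled m6A-seq libraries were used as the authors deposited them. Poly(A) RNA was tagged and pulled down with an anti-m6A antibody, per the labels' protocols. The submitters' processing notes name builds mm9 and mm10 and the tools DESeq2, HTSeq, SAMtools 1.3.1, STAR and cutadapt. What each did, how peaks were called and which test gave the p-values are not stated in the sources used here. The authors deposited a peak score per arm, its difference and an unadjusted p-value, without reads, so depth is unknown.

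Because 164 positions (7 of far peaks) exceed GRCm38 chromosome ends, positions were taken as mm9. The reference used here was GRCm38, so no sequence was read, and 0 transcript identifiers matched its name tables, so the gene lists and cell type markers were not applied. Far peaks were selected by script, listed peaks matched by position and transcript, and p-values adjusted over all peaks (Benjamini-Hochberg). Named peaks follow fixed rules: highest score, largest and most negative difference, farthest from the motif, smallest p, and transcripts with most far or most listed far peaks. The peak set, rules and comparisons were chosen with earlier results of these data known. Computations were tested on simulated data. Python 3.11.15, numpy 2.4.6, pandas 2.3.3, scipy 1.17.1 and matplotlib 3.10.9 were used.

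Whether each replicate was a different mouse is not stated in the labels, and the spread behind the deposited p-values may be technical. Alternatives were other distances, 1 peak per transcript, filters on calls and scores, other p thresholds and score versions, and, chosen after seeing the data, each score version alone and sets without mitochondrial or early peaks.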

Additional observations from a re-analysis of the deposited data

How the results depend on the processing

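No paired analysis was possible because the deposited scores are pooled per arm, and for the same reason no library could be left out. The number of far peaks went from 2419 to 4048 above 30 nt, 867 above 100 nt and 333 when called in at least 2 replicates of an arm. The listed share (18.0%) was 15.9% above 100 nt, 24.3% among repeatedly called and 24.2% among stronger-scoring far peaks, 9.67% at p under 0.05, and 8.22% and 12.8% on the first and the second score version alone. The share higher in the comparator arm (9.67%) was 18.0% among repeatedly called peaks, 4.84% at p under 0.05 and 8.14% with p and direction on the same version. The median difference (0.13) was 0.0424 above 100 nt, 0.22 among stronger-scoring peaks and 0.29 on the second version. The share called in at least 2 replicates of an arm (13.8%) was 15.8% above 100 nt, 15.6% for the strongest far peak of each transcript, 12.3% without the first 300 nt and 6.45% when all 3 replicates of an arm were asked for. The cause of each was not tested, apart from rules that lower a share by construction. These were the narrower p threshold, stricter counts, the list rule on each version alone, and p and direction on the same version. The other 21 values of these 5 results stayed within 1.5 times for counts or inside the interval of the main value. Of the 17 single peaks, 3 changed sign on the second version: uc007oij.1 to -0.18, uc007dkx.1 to -0.43 and uc008rvf.1 to 0.17. Another 4 passed p under 0.1 on the first version only and 4 on the second version only. The unknown depth limits every score.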
